A study of Mus musculus with 3 samples.

Results

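Endoplasmic reticulum (ER)-associated degradation, ERAD, removes misfolded proteins from the secretory pathway. Lectins and mannosidases pick out misfolded glycoproteins, a membrane complex built around the ubiquitin ligase Hrd1 (gene Syvn1) and its partner Sel1l passes them back to the cytosol, the ATPase p97 (gene Vcp) pulls them out, and the proteasome degrades them. Hepatocytes secrete large amounts of plasma protein, and several ERAD genes are known targets of the unfolded protein response, the transcriptional programme set off by misfolded protein in the ER. The genes described here are 34 components of this machinery, chosen by gene symbol out of 37620 Ensembl genes measured. Of these, 33 matched by symbol and 1, Selk, by its other name Selenok.

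The series holds 3 mRNA-sequencing libraries from primary hepatocytes of C57BL/6 mice at passage 1, isolated by collagenase perfusion of the liver and cultured on gelatin with serum and insulin. One group had 1 library, from cells given the solvent DMSO, and the other had 2, from cells given 100 mM tauroursodeoxycholic acid (TUDCA) for 24 h. TUDCA, a taurine-conjugated bile acid, serves as a chemical chaperone that eases protein folding, and the study asked which genes it modulates. The dose is printed as labelled, and its unit may be a typing error, since no other source was at hand to check it. No time is labelled for DMSO, so TUDCA and culture time cannot be told apart. The series speaks of 2 independent experiments without saying which library belongs to which, so p-values measure only how these libraries differ, which may be technical.

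Levels are RPKM, read numbers corrected for the length of the gene and the depth of sequencing, and rest on totals of 9757547 to 10774289 reads per library. Differences are on the log2(RPKM + 1) scale, TUDCA minus DMSO. "Called" means a Benjamini-Hochberg adjusted p below 0.05 over 11300 genes in limma, a linear model that lends each gene the common spread of genes at its level. The only replicates were the 2 TUDCA libraries, and the single DMSO library was assumed to vary as they did. A two-sided exact rank test of 1 library against 2 cannot go below p = 0.667, so none is reported for single genes. Hepatocyte markers were high in all libraries (8 markers, summed level 12516 RPKM in DMSO, 15570 and 14192 RPKM with TUDCA), and 2 of them, Fgb and Hnf4a, were called higher. Cholangiocyte markers summed to 437.1 RPKM in DMSO against 821.2 and 647.6 RPKM with TUDCA, mostly Spp1, which was called higher (log2 difference 0.78, limma adjusted p = 0.00464), with Cftr at 0. Those of endothelial cells summed to at most 4.69 RPKM and those of stellate cells to at most 9.03 RPKM. Macrophage markers summed to 229.8 to 243.1 RPKM, mostly Cd68.

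Promoter stretches of 5 genes are shown first, as the windows of these genes that hold a stress response element searched for. Herpud1 and Derl3, which fell, are among them, as are Syvn1, Vcp and Ube2j1, which were not called. Whether motif and change go together was not tested. The windows run from 250 bases before to 50 bases after a transcription start (RefSeq, GRCm38.p6, given 5′ to 3′ on the gene's strand), and 26 of the 34 genes had at least 1. Capitals mark the motif. Herpud1 (chr8:94386179-94386478, plus strand) holds an ATF4-C/EBP composite element (TTGCATCA), which lies 112 to 105 bases upstream, and an ER stress response element of type II (ERSE-II: ATTGG, 1 base of any kind, CCACG), which lies 52 to 42 bases upstream. Derl3 (chr10:75893148-75893447, plus strand) and Syvn1 (chr19:6046326-6046625, plus strand) hold the classical ERSE (CCAAT, 9 bases of any kind, CCACG), in Derl3 on the reverse strand. Vcp (chr4:43000458-43000757, minus strand) and Ube2j1 (chr4:33031130-33031429, plus strand) hold the core of the unfolded protein response element (UPRE, TGACGTGG), in Ube2j1 on the reverse strand.
Herpud1, 132 to 22 bases upstream: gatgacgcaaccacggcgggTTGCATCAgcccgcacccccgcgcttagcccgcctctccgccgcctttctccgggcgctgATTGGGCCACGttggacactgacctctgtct
Derl3, 176 to 118 bases upstream: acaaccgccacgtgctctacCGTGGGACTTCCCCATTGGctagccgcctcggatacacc
Syvn1, 64 to 6 bases upstream: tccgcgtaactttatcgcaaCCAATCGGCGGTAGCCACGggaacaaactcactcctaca
Vcp, 134 to 87 bases upstream: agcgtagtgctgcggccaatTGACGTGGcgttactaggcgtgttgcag
Ube2j1, 88 to 41 bases upstream: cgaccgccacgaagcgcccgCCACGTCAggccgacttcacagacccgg

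The ERSE was present in 2 of the 26 ERAD genes with a window (7.69%) and in 37 of all 27025 genes with one (0.137%). ERSE-II was found in 1 of 26 against 12 of 27025 (0.0444%), the UPRE core in 2 of 26 against 193 (0.714%), and the ATF4-C/EBP element in 1 of 26 against 279 (1.03%). Both strands were searched and in these genes no motif overlapped another. Among 12 ER luminal chaperone genes with a window, 7 held the ERSE, and none of 26 proteasome genes did. These are matches of letters in one window and were not measured as binding sites. Of the genes with the largest differences, Rnf183 and Sel1l had windows without a match, and Ube2g2 was not matched to a window.

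Of 34 ERAD genes, 4 were called lower with TUDCA and 30 were not called. The 4 were Rnf183, Derl3, Ube2g2 and Herpud1, whose levels fell to between 0.174 and 0.610 of DMSO. They make up 11.8% of the list, where 0.876% of all genes tested were called lower. The list was chosen with earlier results of these data known, so this contrast only describes it. Rnf183 reached the filter only through its DMSO value, and without it 3 of 33 genes (9.09%) were called lower. Limma without a variance trend called 2 lower, and without a filter on low genes it called 0 of all 19146 genes (1696 had an unadjusted p below 0.05, and voom called 267 with the filter). None was called higher by limma, where 1.77% of all genes were, and none was higher at an unadjusted p below 0.05, where 6.58% of all genes were. At that unadjusted p, 6 of the 34 were lower, where 4.19% of all genes were. By role, both TUDCA libraries lay below DMSO for 6 of 7 genes of the membrane core and 3 of 3 of the p97 complex. The same held for 3 of 3 ubiquitin-conjugating enzymes, 4 of 7 membrane recruiters and adaptors, and 1 of 2 genes acting after extraction. It held for 1 of 6 genes of substrate recognition and 1 of 6 other ligases and chain-elongating enzymes, against 30.4% of all genes tested. A difference between role groups was not tested.

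**Figure D1:**
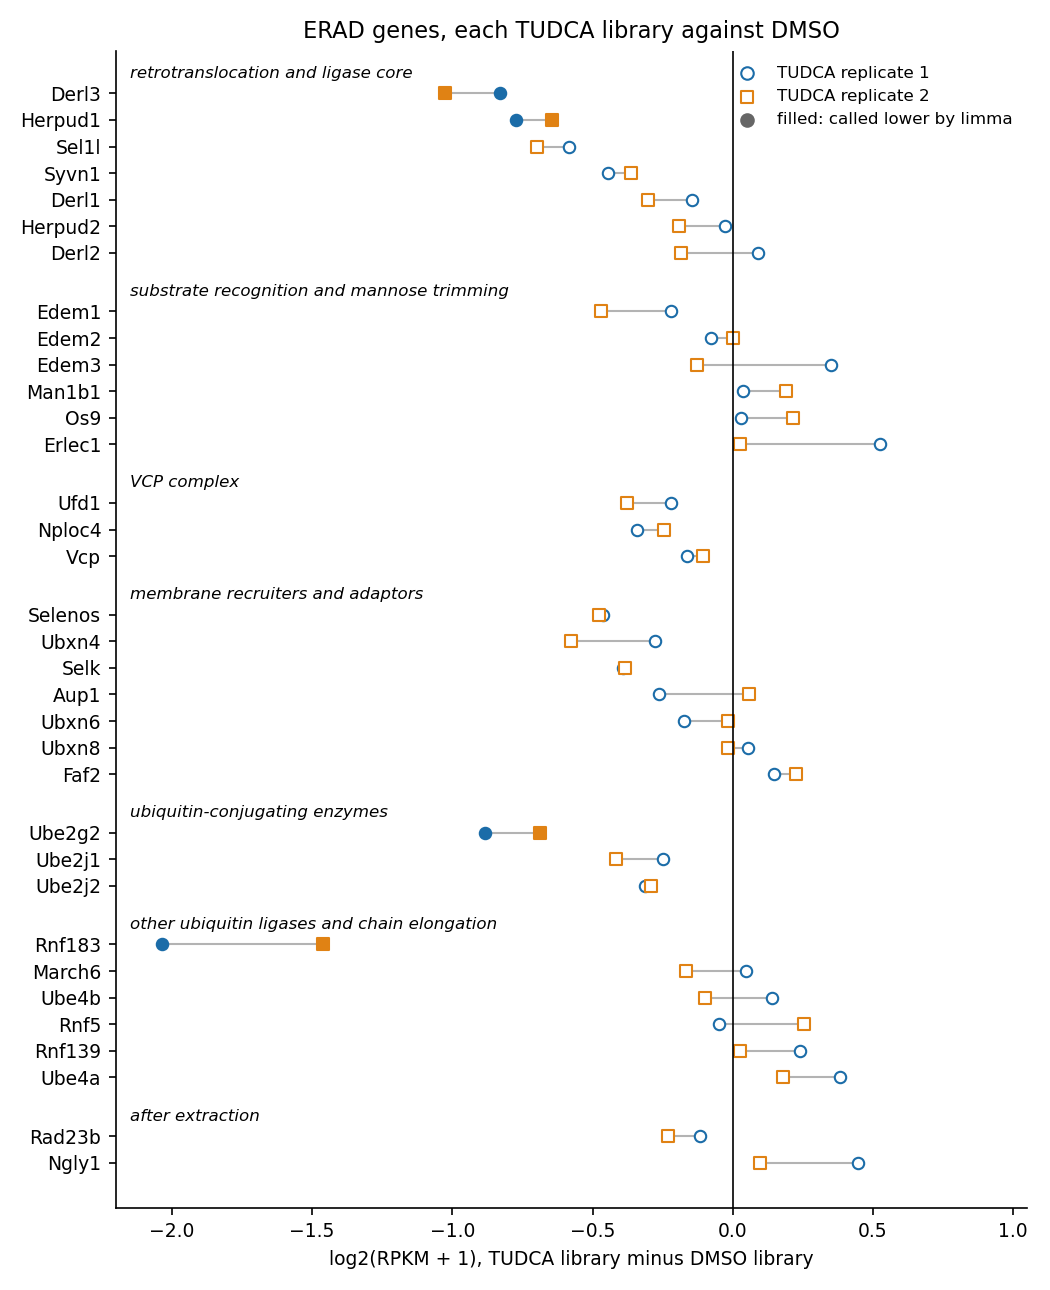
Difference in log2(RPKM + 1) from the DMSO library (x axis) for each of 34 ERAD genes (rows, by role), with TUDCA replicate 1 as circles and replicate 2 as squares; a grey line joins both, and filled symbols mark genes called by limma. The 4 filled genes lie left of -0.64 in both libraries, and no gene of substrate recognition is filled.

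The membrane core held 2 of the 4 called genes. Herpud1 encodes Herp, a ubiquitin-like membrane protein that helps assemble the Hrd1 complex and is itself strongly induced by ER stress. It stood at 137.7 RPKM in DMSO and at 80.1 and 87.8 RPKM in TUDCA replicates 1 and 2. Both TUDCA libraries lay below DMSO, as for 30.4% of all genes tested (log2 difference -0.71 ± 0.21 SE, limma adjusted p = 0.0352). The call was lost with quantile normalization, median centring, limma without a variance trend and voom (adjusted p = 0.124, 0.0628, 0.221 and 0.0535), and without a filter on low genes (0.53). Its relative Herpud2 had 20.4 RPKM in DMSO against 19.98 and 17.7 RPKM under TUDCA (log2 difference -0.11, limma adjusted p = 0.96). The ratio of Herpud1 to Herpud2 was 6.75 in DMSO and 4.01 and 4.96 with TUDCA. Whether the relatives changed differently was not tested.

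Derlins are the membrane proteins that form part of the exit channel. Derl3, a stress-inducible member, had 23.6 RPKM in DMSO against 12.8 and 11.04 RPKM in the TUDCA libraries. It was lower in both (log2 difference -0.93 ± 0.26 SE, limma adjusted p = 0.0193), a call lost without a filter on low genes (adjusted p = 0.55). The more abundant Derl1 had 95.5 RPKM in DMSO against 86.2 and 77.2 RPKM under TUDCA (limma adjusted p = 0.832). Derl2 had 91.6 RPKM in DMSO, between the TUDCA values of 97.5 and 80.6 RPKM (limma adjusted p = 0.985). Derl3 thus made up 11.2% of the summed derlin RPKM in DMSO and 6.52% and 6.54% with TUDCA, while the shares of Derl1 and Derl2 lay between 43.5% and 49.6% in every library. The sum of the 3 derlins is dominated by genes that were not called.

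Sel1l, the adaptor that stabilises Hrd1 and hands it substrates, had 67.9 RPKM in DMSO against 44.9 and 41.5 RPKM with TUDCA. Both values lay below DMSO by over 0.5 on the log2 scale, but the gene was not called (log2 difference -0.64 ± 0.22 SE, limma adjusted p = 0.115), except after regression on GC content and gene length (adjusted p = 0.0304). Syvn1, which encodes Hrd1 itself, had 35.4 RPKM in DMSO against 25.7 and 27.3 RPKM with TUDCA and missed the threshold (log2 difference -0.40, limma adjusted p = 0.602). The ratio of Sel1l to Syvn1 was 1.92 in DMSO and 1.75 and 1.52 with TUDCA. Reads of Syvn1 and of the opposite-strand gene Mrpl49 share 91 exon bases in GENCODE M21 and could not be told apart there, since no source used here gives the strand setting of the counts.

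**Figure D2:**
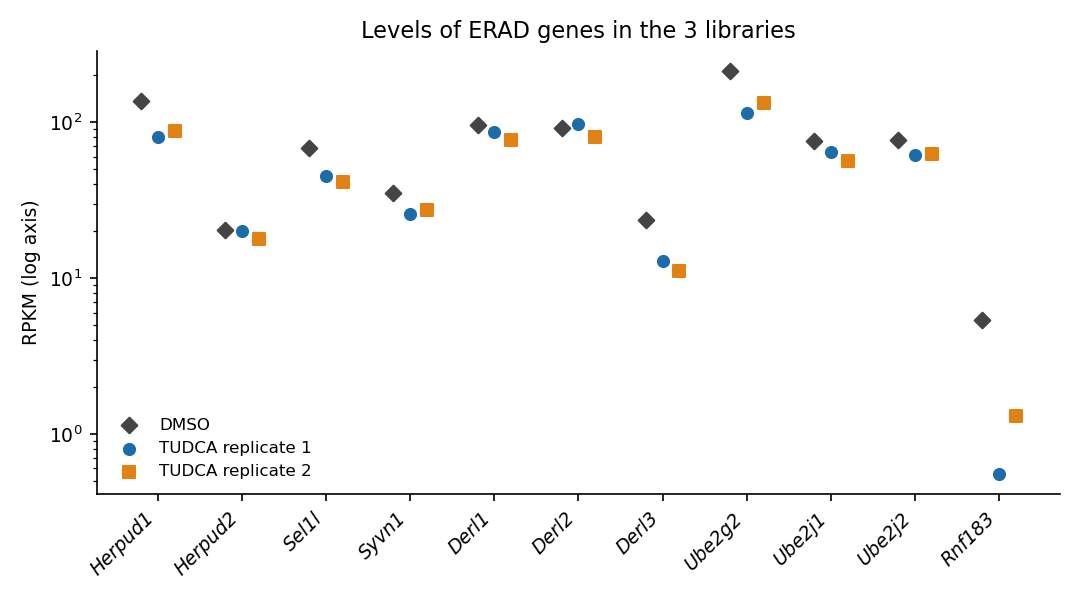
RPKM on a log axis (y) of 11 ERAD genes (x) in the DMSO library (diamonds), TUDCA replicate 1 (circles) and TUDCA replicate 2 (squares). Herpud1, Sel1l, Syvn1, Derl3, Ube2g2 and Rnf183 have both TUDCA values below DMSO. So have Herpud2, Derl1, Ube2j1 and Ube2j2, with smaller mean log2 differences. DMSO lies between the TUDCA values for Derl2.

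Ubiquitin-conjugating enzymes hand ubiquitin to the ligases. Ube2g2, an E2 enzyme recruited to lipid droplets and the ER by Aup1, had 213.9 RPKM in DMSO against 115.5 and 132.3 RPKM with TUDCA. This was the third highest DMSO level of the 34 genes, and both TUDCA libraries lay far below it (log2 difference -0.79 ± 0.21 SE, limma adjusted p = 0.00806). Without a variance trend and without a filter on low genes it was not called (adjusted p = 0.13 and 0.55). The membrane-anchored enzymes Ube2j1, the usual partner of Hrd1, and Ube2j2 had 76.3 and 76.8 RPKM in DMSO. With TUDCA, Ube2j1 had 64.0 and 56.9 RPKM and Ube2j2 had 61.7 and 62.6 RPKM, and neither was called (adjusted p in limma of 0.666 and 0.724). Ube2g2 accounted for 58.3% of the summed RPKM of the 3 enzymes in DMSO and for 47.9% and 52.6% with TUDCA. In GENCODE M21 it shares 166 exon bases with the same-strand gene Gm49325, which has no level in the deposited data. Reads from either gene cannot be told apart there.

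Among the other ligases, Rnf183, a membrane RING ligase known from kidney and gut epithelium, had the largest change of the list. It had 5.35 RPKM in DMSO against 0.552 and 1.31 RPKM under TUDCA (log2 difference -1.75 ± 0.31 SE, limma adjusted p = 5.0e-06), a call lost without a filter on low genes (adjusted p = 0.56). These values rest on few reads, 75 in DMSO and 7 and 18 with TUDCA as the smallest whole numbers that fit the RPKM. The TUDCA mean of 0.930 RPKM is below the filter of 1 RPKM, so Rnf183 entered the test through its DMSO value, and the other 33 genes would have passed on TUDCA alone. Of 8 genes listed as keratinocyte markers, 5 were tested and 4 were called lower, where 0.876% of all genes were. The 8 summed to 9718 RPKM in DMSO, 5749 RPKM in TUDCA replicate 1 and 5747 RPKM in replicate 2, nearly all of it Sprr1a. Krt1 and Krt14 were at 0 in every library. Krt10 had 1.85 RPKM in DMSO, between its TUDCA values of 1.64 and 1.89 RPKM, and was not called. Ivl, at 0.717 RPKM in DMSO, lay below the filter. Whether keratinocytes were present, and whether these genes bear on the values of Rnf183, was not tested. In bulk RNA, a change in cell numbers and a change in RNA per cell cannot be told apart.

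The remaining 5 ligases and chain-elongating enzymes were not called (limma adjusted p from 0.8 to 0.995). Rnf139 (TRC8), a sterol-sensing ligase, had 6.36 RPKM in DMSO against 7.68 and 6.50 RPKM with TUDCA. In GENCODE M21 it shares 1140 exon bases with the opposite-strand gene Tatdn1 and 197 with the same-strand gene Gm49356. Gm49356 has no level in the deposited data. Tatdn1 had 4.72 RPKM in DMSO against 6.83 and 6.05 RPKM with TUDCA, and the assignment of shared reads is uncertain. March6, which clears enzymes of cholesterol synthesis, had 25.3 RPKM, between 26.2 and 22.4 RPKM. Rnf5 had 31.0 RPKM, also between its TUDCA values of 29.9 and 37.1 RPKM. Of the elongation factors, Ube4a had 23.2 RPKM against 30.5 and 26.4 RPKM, above DMSO in both, and Ube4b had 71.4 RPKM, between 78.8 and 66.6 RPKM.

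In substrate recognition, no gene was called by limma, and none had an unadjusted p below 0.05. EDEM proteins trim or recognise mannose on misfolded glycoproteins, and Edem1, a target of the transcription factor XBP1, had 48.7 RPKM in DMSO against 41.6 and 34.8 RPKM under TUDCA (log2 difference -0.35, limma adjusted p = 0.67). It was the one recognition gene with both TUDCA libraries below DMSO. Edem2 had 94.3 RPKM in DMSO against 89.2 and 94.4 RPKM with TUDCA, and Edem3 had 6.35 RPKM and 8.38 and 5.73 RPKM. The lectin Os9, which passes trimmed glycoproteins to Sel1l, had 53.3 RPKM in DMSO against 54.4 and 62.0 RPKM under TUDCA (limma adjusted p = 0.942). The second lectin, Erlec1, had 23.0 RPKM in DMSO against 33.5 and 23.4 RPKM with TUDCA, so that its TUDCA libraries differed more from each other than the lower one did from DMSO. The mannosidase Man1b1 had 111.8 RPKM in DMSO against 114.7 and 127.7 RPKM. The ratio of Sel1l to Os9 went from 1.28 in DMSO to 0.827 and 0.670 with TUDCA.

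All 3 genes of the p97 complex had both TUDCA values below DMSO, as had 30.4% of all genes tested, and none was called by limma or at an unadjusted p below 0.05. Vcp had 268.7 RPKM in DMSO against 240.1 and 249.4 RPKM under TUDCA (log2 difference -0.13, limma adjusted p = 0.92). Its substrate cofactors Nploc4 (149.6 RPKM in DMSO, 117.7 and 125.9 RPKM with TUDCA) and Ufd1 (67.0, 57.3 and 51.3 RPKM) had limma adjusted p = 0.707 and 0.736. All 3 differences were within 2 SE of 0, so the fit did not separate them from no change.

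Some membrane proteins recruit p97 to the ER. Of the 7 genes grouped here as membrane recruiters and adaptors, none was called by limma, 1 with an unadjusted p below 0.05. Selenos, a selenoprotein that binds p97 and derlins, was that gene, with 75.9 RPKM in DMSO and 54.7 and 54.2 RPKM under TUDCA (log2 difference -0.47 ± 0.22 SE, limma adjusted p = 0.381). The selenoprotein Selk had 137.6 RPKM in DMSO against 104.5 and 105.0 RPKM under TUDCA (limma adjusted p = 0.512). The TUDCA libraries agreed closely for both selenoproteins and lay below DMSO. Ubxn4 (erasin) had 40.8 RPKM in DMSO against 33.5 and 27.01 RPKM (limma adjusted p = 0.537). Aup1, Ubxn6, Ubxn8 and Faf2 had log2 fold changes between -0.10 and 0.19, and Faf2, which also regulates lipid droplets, was above DMSO in both (123.9 RPKM against 137.3 and 144.9 RPKM). Chaf1a and Htra2, on the opposite strand, share 4648 and 753 exon bases with Ubxn6 and Aup1.

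After extraction, the N-glycanase Ngly1 removes glycans and Rad23b ferries substrates to the proteasome. Ngly1 had 4.06 RPKM in DMSO, the lowest level of the 34 genes there, and 5.89 and 4.41 RPKM under TUDCA (limma adjusted p = 0.874). Rad23b had 271.3 RPKM, the highest, and 250.1 and 231.2 RPKM under TUDCA (limma adjusted p = 0.883). Neither was called.

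Over the whole list the median log2 fold change was -0.12, with -0.15 in TUDCA replicate 1 and -0.19 in replicate 2, where the median over all 11300 genes was 0.04 (0.06 and 0.02). Both TUDCA libraries were below DMSO for 19 of 34 genes (55.9%), against 30.4% of all genes, and above it for 7 (20.6%), against 40.5%. A difference of at least 0.5 in both libraries was seen downwards for 5 genes (14.7%, against 2.16% of all genes) and upwards for 0 (against 4.66%). The 5 are the 4 called genes and Sel1l, and without Rnf183, which reached the filter only through DMSO, they were 4 of 33 (12.1%). The median was -0.09 with quantile normalization, -0.20 with median centring and -0.22 after regression on GC content and gene length. In these fits the median over all genes tested was -0.008, -0.035 and -0.018. Without the 4 called genes the ERAD median of the reported fit was -0.10. Both TUDCA libraries are set against the same DMSO library, so its own deviation enters every one of these counts.

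Other genes of the pathway, 68 in number, were looked at in the same fit, and 63 reached the filter. Fbxo2, Yod1 and Man1c1 lay below it, and Atxn3 and Usp13 are listed at 0 in every library. The 1 gene called higher was Insig2, which tethers sterol-regulated proteins to ERAD ligases in the ER membrane. It had 102.3 RPKM in DMSO against 206.5 and 207.9 RPKM under TUDCA (log2 difference 1.01 ± 0.21 SE, limma adjusted p = 9.3e-05). The share of 1 in 63 is close to the 1.77% of all genes called higher, and the call was lost without a filter on low genes (adjusted p = 0.502). Its relative Insig1 had 11.2 RPKM in DMSO against 9.49 and 9.93 RPKM under TUDCA (limma adjusted p = 0.919). None of the 63 was called lower by limma or voom, 3 having an unadjusted p below 0.05. The ligase Rnf19b was the lowest of them, with 116.7 RPKM in DMSO and 71.2 and 75.5 RPKM under TUDCA (limma adjusted p = 0.0661), followed by the stress-inducible zinc finger gene Zfand2a, with 112.0, 69.1 and 79.0 RPKM (limma adjusted p = 0.135). After Insig2 the ligase Rnf170 was highest, with 4.06 RPKM in DMSO and 8.03 and 6.39 RPKM under TUDCA (limma adjusted p = 0.272). The median log2 fold change of the 63 genes was -0.05, and -0.12 with median centring and -0.10 after the GC and length regression. The median over all genes tested was, in the same order, 0.04, -0.035 and -0.018.

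The neighbouring steps gave other counts. Of 16 ER luminal chaperone genes, 8 were called lower, where 0.876% of all genes were, with a median log2 fold change of -0.80. Without a filter on low genes none of them was called. Hspa5 (BiP) went from 1807 RPKM in DMSO to 787.7 and 580.9 RPKM, and Creld2 from 172.1 to 53.3 and 48.8 RPKM. Of 32 proteasome subunits none was called by limma or voom, 1 had an unadjusted p below 0.05, and the median was -0.24, with 25 below DMSO in both TUDCA libraries, where 30.4% of all genes were. The differences between these lists and the ERAD genes were not tested.

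**Figure D3:**
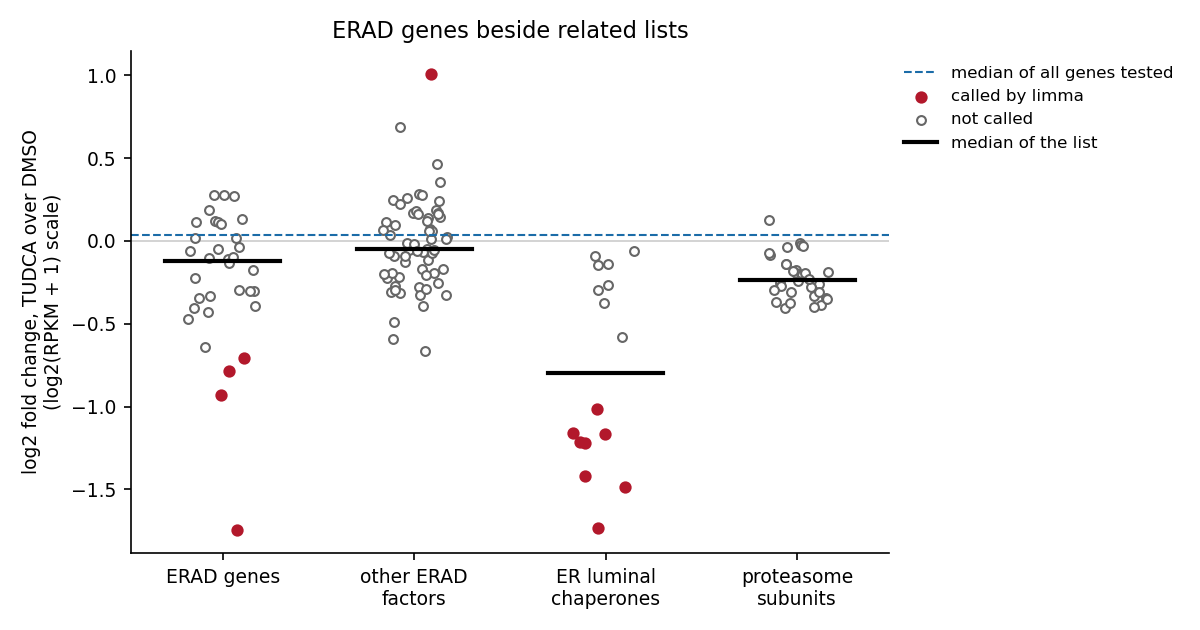
Log2 fold change of TUDCA over DMSO (y axis, mean of both TUDCA libraries) for 34 ERAD genes, 63 other ERAD factors, 16 ER luminal chaperones and 32 proteasome subunits; filled points were called by limma, black bars are list medians (-0.12, -0.05, -0.80 and -0.24) and the dashed line is the median of all genes tested (0.04). Sideways scatter has no meaning. Most ERAD genes lie near 0 with 4 called genes below them.

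Calls of the ERAD genes depended on the model to different degrees. Rnf183 was called in 8 of the 9 alternative fits that kept it, Derl3 in 9 of 10, Ube2g2 in 8 of 10, Herpud1 in 5 of 10 and Sel1l in 1 of 10. Their log2 fold changes stayed negative in all of these fits, between -2.58 and -0.60. With voom on the recovered reads 3 of the 34 genes were called, Rnf183, Derl3 and Ube2g2.

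**Figure D4:**
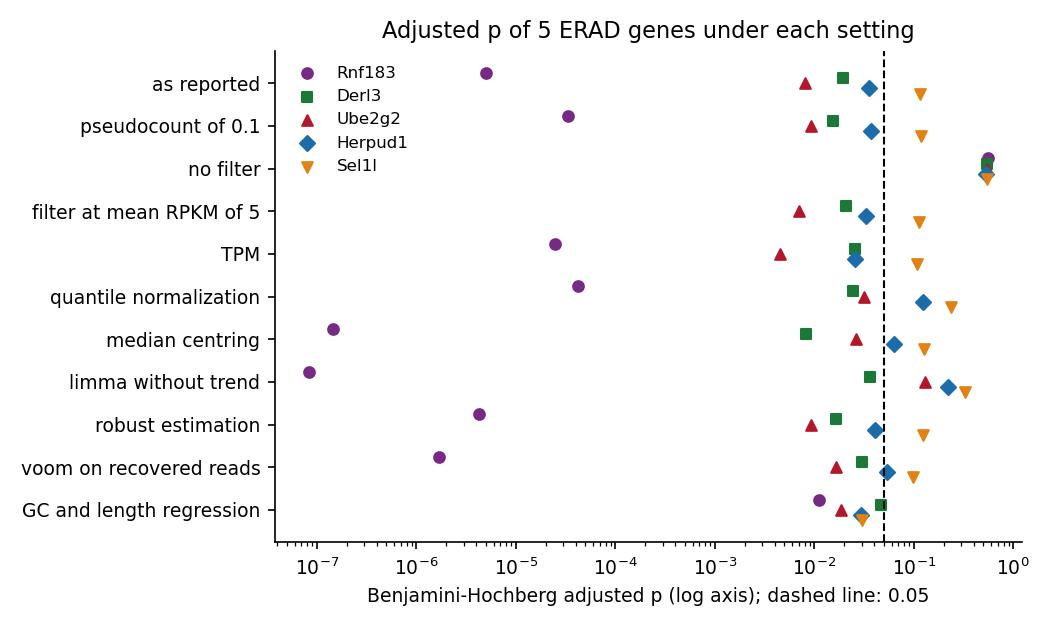
Benjamini-Hochberg adjusted p (x axis, log scale, dashed line at 0.05) of Rnf183, Derl3, Ube2g2, Herpud1 and Sel1l under the reported fit and 10 alternatives (rows). All 5 lie right of the line without a filter on low genes (0.53 to 0.56), and Herpud1 crosses it in 4 other rows; Rnf183 is missing at a filter of 5 RPKM, which it does not reach.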

How the data were processed

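The authors deposited an RPKM table for each library, with 37620 Ensembl identifiers. HTSeq, Bowtie2, TopHat2 2.0.7 and CASAVA appear in the submitters' processing notes, without roles. Build, annotation and strand setting: not given in the sources used here. Symbols came from GENCODE M21 by identifier (32897 matched) and promoter windows from RefSeq. The members and gene lists were chosen with earlier results of these data known.

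The 11300 genes averaging 1 RPKM or more were fitted as log2(RPKM + 1) with limma 3.58.1 in R 4.3.3 (eBayes with trend), with Benjamini-Hochberg adjustment over all of them. limma estimated the prior degrees of freedom as infinite, so every gene took the common SD at its level (0.159 to 0.265). SE are from this fit. Whole reads were recovered for 100% of 19146 genes above 0 (within 0.0001 reads) from library totals voted by GENCODE exon lengths. They give the smallest numbers that fit, summing to 95.7 to 95.9% of the totals, and served voom and the read numbers printed. The smallest gene lengths that fit were shorter than the GENCODE exon union for 33 of 34 members, but whole multiples of them fit as well. The authors' lengths are thus not known, and levels compared between genes depend on them.

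Named genes were those called, those at least 0.5 from DMSO in both libraries, and preset members of each role; other lists give the called genes and the extremes. Some results for single list genes are not reported here.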

Additional observations from a re-analysis of the deposited data

How the results depend on the processing

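The counts rest on the filter and the shared spread. Without a filter on low genes limma called 0 genes of 19146 in place of 299 (1696 with an unadjusted p below 0.05, 267 called by voom at the filter of 1 RPKM). It then called 0 of the ERAD genes lower and 0 of their partners higher, and the adjusted p of Rnf183, Derl3, Ube2g2, Herpud1, Sel1l and Insig2 lay between 0.502 and 0.56. limma without a variance trend called 2 ERAD genes lower in place of 4, Rnf183 and Derl3. The GC and length regression called 1 partner lower, Rnf19b. The median log2 fold change of the ERAD genes, -0.123, was -0.092 with quantile normalization, -0.197 with median centring and -0.215 after the GC and length regression. Leaving out 1 TUDCA library gave -0.188 to -0.154. The median of the partners, -0.047, was -0.121, with median centring, and -0.101, with the GC and length regression, and -0.076 to -0.040 with 1 TUDCA library left out. The median over all genes tested, 0.039, moved too. It was -0.008 with quantile normalization, -0.035 with median centring and -0.018 after the GC and length regression. Median centring adds the same constant to every gene of a library, so it moves every list alike. The cause of the other shifts was not tested. With 1 TUDCA library left out no degree of freedom remained, so calls could not be made. No paired analysis was possible because the labels number only the TUDCA libraries. Depth limits Rnf183 most, with 7 and 18 reads in the TUDCA libraries.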
